A study of Rattus norvegicus with 4 samples.

Results

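Rab GTPases are small proteins of the Ras superfamily that direct vesicle traffic. Each Rab sits on its own set of membranes, switches between a GDP-bound and a GTP-bound state, and in the GTP-bound state recruits effectors that move, tether and fuse vesicles. In mast cells, Rabs act on the path by which granules mature, travel and fuse with the plasma membrane when the IgE receptor is crosslinked, and on the uptake and recycling of that receptor. The members described here are the genes whose single annotated symbol is Rab followed by a number and an optional letter. Rab-interacting proteins were kept apart. The rule found 55 genes on 94 probe sets, out of 14217 genes on 20826 probe sets that have 1 symbol, and used no measured value. Each gene was given by its brightest probe set, and its other probe sets are described after that.

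The cells, labelled as mast cells, were selected as AA4+ out of pancreatic lymph nodes, taken at day 65 from female BioBreeding (BB) rats. AA4 is an antibody to gangliosides of the rat mast cell surface. The diabetes-prone animals were DRlyp/lyp, homozygous for the lyp mutation of Gimap5, which leaves few peripheral T cells, and the diabetes-resistant animals were DR+/+. No treatment is named for either group. RNA of 8 animals was pooled per genotype, and each pool was amplified independently for 2 Affymetrix rat genome arrays, which gave 4 arrays. The p-values below therefore compare 2 pools against the spread between amplifications, and the spread between animals cannot be had. Values are array signal on the linear scale as deposited, in the order array 1 and array 2 of each pool, and differences are log2, DRlyp/lyp minus DR+/+, with the standard error of the fit. A gene was called higher or lower at an adjusted p under 0.05 (limma, Benjamini-Hochberg over the 16068 probe sets tested). Signals of different genes are not comparable on this array.

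The 2% trimmed mean of the signal was 150.05 on each array, and the arrays of a pool correlated at 0.98 (DRlyp/lyp) and 0.97 (DR+/+) over the tested probe sets. The 3′ minus 5′ log2 signal of beta-actin, which grows as amplified RNA becomes shorter, was 4.43 and 4.55 in the DRlyp/lyp pool and 3.01 and 3.10 in the DR+/+ pool. Against the DR+/+ pool, the DRlyp/lyp pool showed rises in 3 and falls in 2 of the 10 mast cell markers that were tested. Il1rl1, the IL-33 receptor, read 119.9 and 113.8 against 10.3 and 12.1, the latter below the filter, and the tryptase Tpsab1 read 29.8 and 19.9 against 102.8 and 77.0. Kit, the stem cell factor receptor, lay below the filter on all 4 arrays, while the carboxypeptidase Cpa3 read 527.8 and 515.6 against 425.8 and 462.1. Markers of other cells were present. The summed signal of 12 T cell markers was 9862 to 9871 in the DRlyp/lyp pool against 2220 to 2437 in the DR+/+ pool, with 11 higher, led by Cd3e (3.41) and Bcl11b (3.05), and 1 lower. That of 17 exocrine pancreas genes was 11079 to 11477 against 272 to 276, with 17 of 17 higher, 12 of which lay below the filter on the DR+/+ arrays. Of 7 B cell markers 0 were higher and 5 lower, with summed signal of 9588 to 9968 against 12677 to 14013. Of 9 macrophage markers 2 were higher and 6 lower, with summed signal of 7267 to 7365 against 11791 to 12352. Of 5 plasma cell, 4 neutrophil, 4 erythroid and 5 endothelial markers, 2, 2, 2 and 2 were higher and 1, 0, 1 and 2 lower. In such bulk RNA, fewer cells of a type and less RNA per cell cannot be told apart. The part of these markers and of RNA length in the Rab differences was not tested.

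Of the 55 Rab genes, 45 passed the filter on dim probe sets (signal above 28.3 on at least 2 arrays), and 0 of these passed it through 1 pool alone. Among the 45, the DRlyp/lyp pool was higher for 7 and lower for 13, and 25 were not called. The called share of 20 in 45 (44.4%) stood near the background, since 42% of the 9342 genes tested by their brightest probe set were called, 20.9% as higher and 21.1% as lower. By direction, 15.6% of the Rab genes were called higher and 28.9% lower. The median log2 difference was -0.17 for the Rab genes against 0.00 for all genes. Most changes were small. The 13 lower genes fell by factors of 1.26 to 1.71, and the 7 higher genes rose by 1.34-fold to 4.29-fold. Only Rab37 and Rab14 were called with at least a 2-fold change, 2 of 45 against 9.68% of all genes tested. The arrays of the pools did not overlap for 35 of the 45 Rab genes (12 higher, 23 lower), against 71.8% of all genes. Fewer Rab genes were called with either DRlyp/lyp array left out. The spread of a gene then came from the DR+/+ arrays alone, so these fits cannot show on which pool the calls rest. The number of called Rab genes was 6 without the filter, which adds dim probe sets to the adjustment and to the estimate of the spread. Of the 20 calls, those of Rab37, Rab8b, Rab11a, Rab10 and Rab5b were also made without the filter. Those of Rab37, Rab8b, Rab7b, Rab14, Rab10, Rab12, Rab5b, Rab4b and Rab1a were also made when limma's intensity trend was left out, and the others were lost. With each array centred on its median, which moved the median of all genes by -0.11, 6 Rab genes were higher and 16 lower. Under that centring all genes also shifted, with 1346 higher and 2442 lower (35.5% of calls higher, against 49.7% as deposited and 27.3% for the Rab genes).

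**Figure D1:**
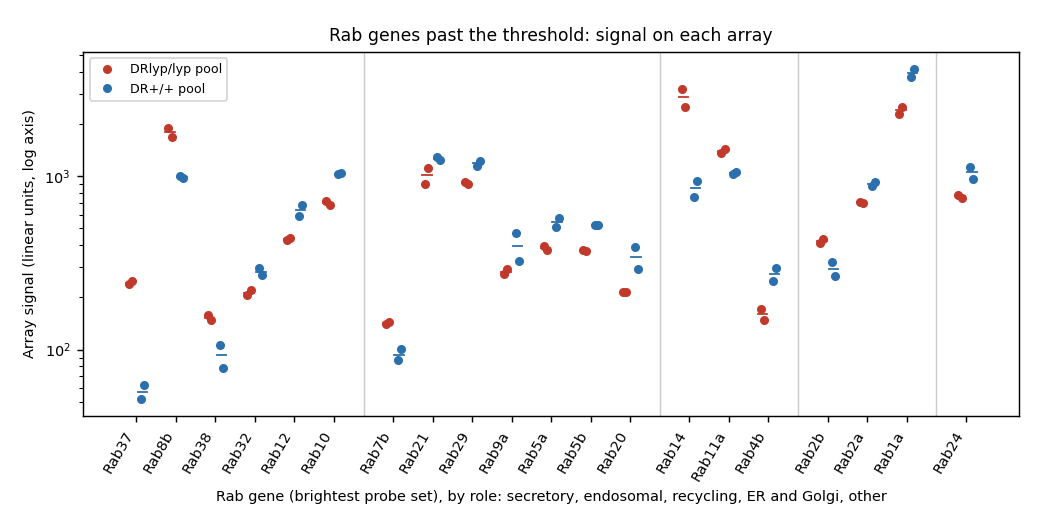
Array signal (linear units on a log axis) of the 20 Rab genes called between the pools, in the order secretory, endosomal, recycling, ER and Golgi, and other Rabs; points are single arrays (2 per pool) and short lines are pool means. The 7 genes higher in the DRlyp/lyp pool and the 13 lower ones separate without overlap between the arrays of the pools. They were selected by their calls on these same arrays, and 71.8% of all genes tested do not overlap either. Rab37 and Rab14 show the widest gaps.

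Secretory Rabs moved in both directions. This group comprised Rabs of regulated exocytosis, of delivery from the Golgi to the cell surface and of lysosome-related granules. Of 14 on the array 10 were tested, 3 were higher, 3 were lower and 4 were not called. On these few genes, the called share lay above the background of 42%. The shares called higher and lower were also above the 20.9% and 21.1% of all genes tested. The median log2 difference of the group was -0.11. The sign of that median was not stable, as it read 0.07 without DRlyp/lyp replicate 1 and 0.08 without DR+/+ replicate 2.

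Rab37, a Rab of secretory granules first cloned from mast cells, read 239.2 and 248.7 in the DRlyp/lyp pool and 51.6 and 62.7 in the DR+/+ pool. Both DRlyp/lyp arrays stood far above both DR+/+ arrays, a rise of 4.29-fold (log2 difference 2.10 ± 0.20 SE, limma adjusted p = 1.09e-05). No alternative setting ended this call, with log2 differences of 1.46 to 2.24. Rab37 has 1 probe set on the array, so taking the mean or the dimmest set could not change it. Rab8b, which carries vesicles from the trans-Golgi network to the plasma membrane, read 1896.7 and 1693.8 against 1000.3 and 976.7. It was higher by 1.81-fold on that probe set (0.86 ± 0.08, limma adjusted p = 1.03e-05). Rab38, known from the biogenesis of melanosomes, platelet granules and other lysosome-related organelles, read 157.7 and 148.0 against 106.8 and 78.7. Its rise was 1.67-fold (0.74 ± 0.21, limma adjusted p = 0.0158). The call of Rab38 was lost without DRlyp/lyp replicate 1, DRlyp/lyp replicate 2 or DR+/+ replicate 2 (limma adjusted p = 0.136, 0.0923 and 0.0661).

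Rab10, which delivers cargo such as the glucose transporter Glut4 to the surface, read 716.1 and 686.5 against 1032.9 and 1040.1. The pools did not overlap and the fall was 1.48-fold (-0.56 ± 0.09, limma adjusted p = 0.000342), and no alternative setting ended the call. Rab12, which acts in transport from recycling endosomes to lysosomes and in the movement of mast cell granules, read 426.8 and 441.3 against 591.7 and 682.4 (1.46-fold lower, -0.55 ± 0.11, limma adjusted p = 0.00213). Rab32, the partner of Rab38 in lysosome-related organelles, read 205.5 and 221.1 against 295.4 and 268.0 (1.32-fold lower, -0.40 ± 0.14, limma adjusted p = 0.0424). The Rab32 and Rab38 signals thus went opposite ways. The Rab32 call was lost without either DRlyp/lyp array (limma adjusted p = 0.241 and 0.132) and without DR+/+ replicate 1 (limma adjusted p = 0.123), and with quantile normalization (limma adjusted p = 0.0630).

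The Rabs best known from fusion of secretory granules were dim or did not pass the test. Rab3d, found on granules of mast cells and of pancreatic acinar cells, read 58.2 and 114.6 against 88.3 and 94.5. Its DRlyp/lyp arrays lay on both sides of the DR+/+ arrays, and the difference was -0.16 ± 0.30 (limma adjusted p = 0.703). Rab3a, Rab3b and Rab3c, the paralogs used at synapses and in endocrine cells, stayed at or below 20.8, 21.4 and 2.2 on every array and were not tested. Rab27b, a regulator of granule docking in mast cells and acinar cells, read 21.3 and 34.3 against 8.5 and 11.8 and was not tested, since 1 array alone lay above the filter. Rab26, a Rab of acinar zymogen granules, read 50.4 and 58.1 against 44.8 and 69.7 (-0.05 ± 0.31, limma adjusted p = 0.921). The summed signal of the exocrine pancreas genes, given above, stood apart between the same pools. Its part in the signals of these Rabs was not tested. Rab8a (-0.17) and Rab13 (-0.06) were also not called.

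**Figure D2:**
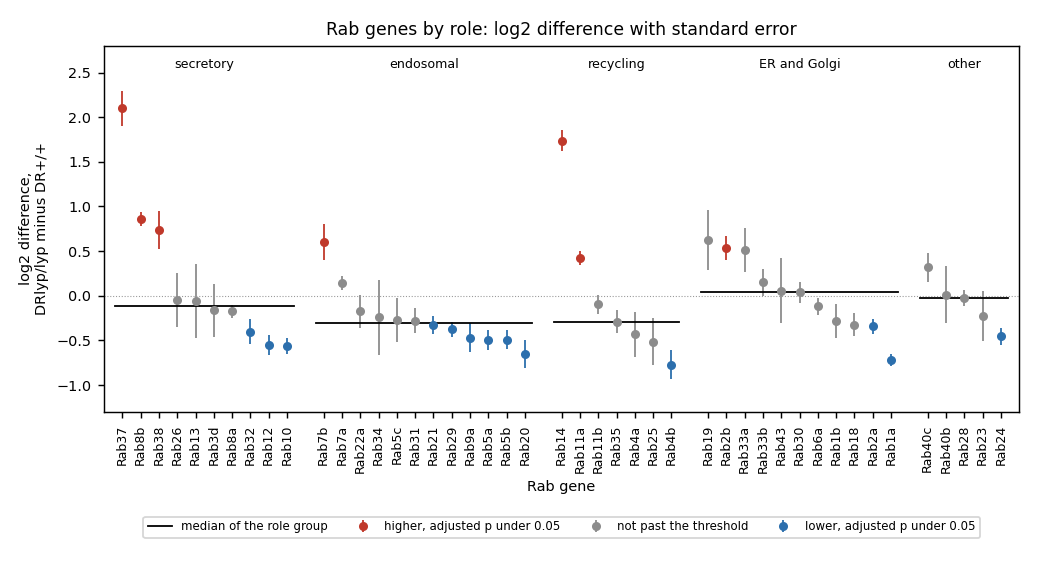
Log2 difference (DRlyp/lyp minus DR+/+) with its standard error for the 45 tested Rab genes, brightest probe set, sorted within each role group; colours mark the limma call and black lines the group medians. Endosomal Rabs gather below 0 with a median of -0.31 and Rab7b as the called exception, whereas secretory Rabs spread from -0.56 to 2.10.

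Endosomal Rabs were called lower more often than higher. Of 15 on the array 12 were tested, 1 was higher (8.3%), 6 were lower (50.0%) and 5 were not called. Over all genes tested, 20.9% were higher and 21.1% lower. In the endosomal group 10 of 12 differences were below 0, against 4664 of 9342 over all genes tested. The median was -0.31 against 0.00 for all genes tested. The centred median of the group was -0.15 and -0.16 on the DRlyp/lyp arrays and 0.15 and 0.19 on the DR+/+ arrays. The median difference was -0.42 to -0.27 under the alternative settings that moved it.

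On their brightest probe sets, all 7 tested Rabs of the early endosome had differences below 0, from -0.65 to -0.17. Of them 4 were called (57.1%, against 42% over all genes tested). The other tested sets of Rab20 (0.15 and 0.68) and Rab22a (1.06, called higher, and 0.13) were above 0. Those of Rab5a (-1.07) and Rab5b (-1.19, not called, limma adjusted p = 0.0711) were below 0. Both sets lay below the filter on the DRlyp/lyp arrays, so they passed it through the DR+/+ pool alone. The promoters of the 4 called genes are given here, because their brightest sets fell together. They run from 250 bases before to 50 bases after the annotated start. The sequences are those of RefSeq for the rat assembly GRCr8, 5′ to 3′ on the gene's strand. Capitals mark matches, on either strand, to the E-box CACGTG, the GC box CCGCCC, the AP-1 motif TGACTCA or the GATA motif AGATAA.
Rab5a, GRCr8 chr9:6720877-6721176, plus strand: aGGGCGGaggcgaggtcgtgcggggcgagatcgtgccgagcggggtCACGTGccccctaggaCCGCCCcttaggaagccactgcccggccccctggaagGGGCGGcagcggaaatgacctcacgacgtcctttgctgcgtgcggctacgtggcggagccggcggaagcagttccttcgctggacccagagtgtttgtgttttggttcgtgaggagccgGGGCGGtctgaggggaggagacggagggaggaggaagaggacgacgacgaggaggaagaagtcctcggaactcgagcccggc
Rab5b, GRCr8 chr7:1712687-1712986, minus strand: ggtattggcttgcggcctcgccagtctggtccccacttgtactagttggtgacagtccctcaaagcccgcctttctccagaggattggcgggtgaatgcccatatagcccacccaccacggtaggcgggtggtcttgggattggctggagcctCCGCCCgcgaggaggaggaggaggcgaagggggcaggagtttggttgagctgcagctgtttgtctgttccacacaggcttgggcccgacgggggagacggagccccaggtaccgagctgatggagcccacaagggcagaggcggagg
Rab20, GRCr8 chr16:84721177-84721476, plus strand: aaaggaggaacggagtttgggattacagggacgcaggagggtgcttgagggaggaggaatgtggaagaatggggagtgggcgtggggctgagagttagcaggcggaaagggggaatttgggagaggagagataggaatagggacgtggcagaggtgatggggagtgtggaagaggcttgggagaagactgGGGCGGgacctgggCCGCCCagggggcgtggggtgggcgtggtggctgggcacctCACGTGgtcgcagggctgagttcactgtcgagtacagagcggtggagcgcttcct
Rab21, GRCr8 chr7:52814894-52815193, minus strand: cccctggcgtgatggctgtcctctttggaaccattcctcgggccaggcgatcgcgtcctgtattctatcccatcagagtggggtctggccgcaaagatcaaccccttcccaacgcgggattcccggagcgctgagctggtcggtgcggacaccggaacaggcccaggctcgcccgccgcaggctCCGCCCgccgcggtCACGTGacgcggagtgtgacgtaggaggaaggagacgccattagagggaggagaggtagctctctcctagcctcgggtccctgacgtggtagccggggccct
The capitals in these 4 windows were GC boxes, and E-boxes in Rab5a, Rab20 and Rab21. Promoter entries were found for 44 of the 55 Rab genes. The E-box was present in 4 of the 6 tested early endosomal Rabs with an entry (the fourth was Rab31), in 0 of the 29 other tested Rabs and in 6.65% of 27457 promoters of the same length. The GC box was present in 6 of 6, 22 of 29 and 34.9% of these sets, the AP-1 motif in 0, 3 and 4.53%, and the GATA motif in 0, 1 and 11.3%. By call, the E-box was present in 3 of 11 lower, 0 of 4 higher and 1 of 20 uncalled Rab genes with an entry. Most lower genes thus lacked it. These matches are descriptions of letters in a window, with no test.

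Rab5a, the master regulator of early endosome fusion, read 395.1 and 376.9 against 510.2 and 578.0. Both DRlyp/lyp arrays lay below both DR+/+ arrays, a fall of 1.41-fold (-0.49 ± 0.11, limma adjusted p = 0.00506). The call was lost without DRlyp/lyp replicate 2 (limma adjusted p = 0.0657). Its paralog Rab5b read 374.5 and 369.8 against 523.1 and 524.3, also 1.41-fold lower (-0.49 ± 0.11, limma adjusted p = 0.00377). The third paralog, Rab5c, differed by -0.27 ± 0.24 and was not called (limma adjusted p = 0.405). Rab20, which acts on early endosomes and maturing phagosomes, read 215.8 and 214.4 against 392.9 and 290.1 (1.57-fold lower, -0.65 ± 0.16, limma adjusted p = 0.00716). The DR+/+ arrays of Rab20 were far apart, and the call was lost without DRlyp/lyp replicate 1 or 2 (limma adjusted p = 0.0653 for both). Rab21, which carries integrins through early endosomes, was 1.26-fold lower (-0.33 ± 0.10, limma adjusted p = 0.0227). That call was lost without DRlyp/lyp replicate 1, DR+/+ replicate 1 or DR+/+ replicate 2 (limma adjusted p = 0.286, 0.109 and 0.0623). Rab22a (-0.17) and Rab31 (-0.28), related Rabs of the early endosome and the trans-Golgi network, were not called. Rab17, an epithelial Rab, stayed at or below 12.8.

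Rabs of late endosomes and lysosomes were split. Of 5 tested, 1 was higher and 2 were lower. On these few genes, the share called higher stood near the 20.9% of all genes tested. The share called lower was above the 21.1%, and the called share either way was above 42%. Rab7a, which drives fusion of late endosomes with lysosomes, read 1180.9 and 1182.4 against 1044.5 and 1093.4. Its arrays did not overlap, but the difference of 0.14 ± 0.08 did not pass the threshold (limma adjusted p = 0.165). Rab7b, a Rab of late endosomes and the trans-Golgi network found in monocytic cells, read 140.0 and 143.7 against 86.6 and 100.8, a rise of 1.52-fold (0.60 ± 0.20, limma adjusted p = 0.0298). Rab9a, which returns mannose 6-phosphate receptors from late endosomes to the Golgi, read 273.3 and 290.8 against 469.4 and 323.8 (1.38-fold lower, -0.47 ± 0.17, limma adjusted p = 0.0417). Rab29, related to Rab32 and Rab38 and placed on the Golgi and on stressed lysosomes, was 1.30-fold lower (-0.37 ± 0.08, limma adjusted p = 0.00371). These calls were fragile. Rab7b was lost without DRlyp/lyp replicate 1, DRlyp/lyp replicate 2 or DR+/+ replicate 1 (limma adjusted p = 0.149, 0.171 and 0.0833) and with median centring (limma adjusted p = 0.0790). Rab9a was lost without the same arrays (limma adjusted p = 0.224, 0.142 and 0.278) and with quantile normalization (limma adjusted p = 0.0607), and Rab29 without DRlyp/lyp replicate 2 (limma adjusted p = 0.0526). Rab34, a Rab of macropinosomes and lysosome positioning, differed by -0.24 ± 0.42. Rab9b and Rab36 were not tested, with highest signals of 11.6 and 13.5.

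Recycling Rabs included the largest fall of the family on brightest probe sets, that of Rab4b. They also included 2 rises that the probe sets of a gene did not share. Of 8 on the array 7 were tested, 2 were higher, 1 was lower and 4 were not called. The called share was 42.9% against 42% over all genes tested, and the median was -0.29. Rab14, which moves cargo between the Golgi and endosomes, read 3174.5 and 2525.8 against 764.0 and 945.1 on its brightest probe set (3.33-fold, 1.74 ± 0.12, limma adjusted p = 7.05e-07). Rab11a, the main Rab of the recycling endosome, read 1371.7 and 1432.4 against 1026.6 and 1065.2 on its brightest set (1.34-fold, 0.42 ± 0.08, limma adjusted p = 0.00114). The mean of the probe sets was -0.16 for Rab14 and 0.01 for Rab11a, neither called, and the single sets are given below. Rab4b, a Rab of rapid recycling from early endosomes, read 171.8 and 148.5 against 250.5 and 297.3. It has 1 probe set and fell by a factor of 1.71 (-0.77 ± 0.16, limma adjusted p = 0.00273), and it was called with each array left out. Its paralog Rab4a differed by -0.43 ± 0.25 and was not called (limma adjusted p = 0.192). Rab11b (-0.10), the epithelial Rab25 (-0.52) and Rab35 (-0.29), a Rab of fast recycling and exosome release, were not called either. Rab15 stayed at or below 13.2.

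Rabs of the endoplasmic reticulum (ER) and Golgi showed little common movement. Of 12 on the array 11 were tested, 1 was higher, 2 were lower and 8 were not called. The called share was 27.3% against 42% over all genes tested, and the median was 0.04. Rab1a, required for transport from the ER to the Golgi, read 2301.6 and 2497.7 against 3725.8 and 4185.0. All DRlyp/lyp values lay below all DR+/+ values, a fall of 1.65-fold (-0.72 ± 0.07, limma adjusted p = 1.25e-05). Its near copy Rab1b was not called on any of its 4 probe sets (-0.28 ± 0.19 on the brightest, limma adjusted p = 0.275). Rab2a, a Rab of the ER-Golgi intermediate compartment, read 715.0 and 705.2 against 880.5 and 922.8 (1.27-fold lower, -0.34 ± 0.09, limma adjusted p = 0.00885). Its paralog Rab2b went the other way, at 412.9 and 434.5 against 320.9 and 266.2 (1.45-fold higher, 0.54 ± 0.13, limma adjusted p = 0.0072). Both paralogs lost their call without DRlyp/lyp replicate 1 (limma adjusted p = 0.0726 for Rab2a and 0.0614 for Rab2b) and without DRlyp/lyp replicate 2 (0.0814 and 0.0923). The Golgi Rabs Rab6a (-0.12), Rab30 (0.04), Rab33a (0.51), Rab33b (0.15), Rab19 (0.63) and Rab43 (0.06) and the ER and lipid droplet Rab18 (-0.32) were not called. Rab6b, the neuronal form of Rab6, stayed at or below 27.9.

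Among the 6 remaining Rabs, Rab24, which acts in autophagy, read 781.8 and 752.4 against 1138.3 and 968.7 and was 1.37-fold lower (-0.45 ± 0.10, limma adjusted p = 0.00315). Rab23, an antagonist of hedgehog signalling, Rab28, a Rab of cilia, and Rab40b and Rab40c, which carry a SOCS box for ubiquitin ligase assembly, differed by -0.23, -0.02, 0.01 and 0.32 and were not called. Rab39a stayed at or below 2.5.

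The role groups overlapped in their differences. The medians of the secretory, endosomal and recycling Rabs were -0.11, -0.31 and -0.29 against 0.00 for all genes, and the ranges were -0.56 to 2.10, -0.65 to 0.60 and -0.77 to 1.74. The difference between groups was not tested, because the genes of a group are not replicates and each genotype is 1 pool. By array, the centred median of the endosomal group separated the pools with a spread within pools of 0.02 (SD), while the spread of the secretory group was 0.16 and its arrays overlapped between the pools. Separation was not particular to the endosomal group. The centred median of all 45 tested Rabs was -0.13 and -0.08 on the DRlyp/lyp arrays and 0.03 and 0.13 on the DR+/+ arrays (SD 0.05). The recycling group read -0.21 and -0.08 on the DRlyp/lyp arrays and 0.06 and 0.23 on the DR+/+ arrays.

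Probe sets of the same gene disagreed for several Rabs. Of 26 Rab genes with more than 1 probe set, 16 had more than 1 tested. Over the 69 tested Rab probe sets, 9 were higher and 22 lower, where 19.3% and 19.9% of all probe sets tested were (39.2% either way). In 12 of these 16 genes the dimmest set had a lower difference than the brightest, against 64.2% of the 2106 genes of the array with several tested sets. Called differences in both directions occurred in 2 of 16 Rab genes (12.5%) and in 7.50% of those 2106. The 2 genes were Rab14 and Rab11a. Of the 5 tested sets of Rab14, the brightest rose by 1.74, 3 fell by 0.74, 1.21 and 1.18, and 1 was not called (0.61). The second set of Rab11a read 241.7 and 242.5 against 322.1 and 313.7 and fell (-0.39, limma adjusted p = 0.0324). For Rab8b the other sets differed by -0.41 and 0.26, neither called (limma adjusted p = 0.0634 and 0.403). With the mean of a gene's tested sets, Rab14 differed by -0.16 (limma adjusted p = 0.410), Rab11a by 0.01 (0.917) and Rab8b by 0.24 (0.165).

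Rab10 and Rab2b were called in 1 direction on both of their probe sets, with -0.56 and -0.73 for Rab10 and 0.54 and 0.60 for Rab2b. Rab5a was lower on both sets (-0.49 and -1.07), the second of them at 26.3 and 27.9 in the DRlyp/lyp pool, below the filter. The second set of Rab12 was also lower (-2.16), but it read 4.2 and 6.2 against 30.4 and 30.3 and lay below the filter in the DRlyp/lyp pool. Second sets of Rab7a (-1.07, limma adjusted p = 0.0145) and Rab11b (-1.13, limma adjusted p = 0.0106) were lower where the brightest set was not called. In contrast, the second set of Rab22a was higher (1.06, limma adjusted p = 0.00158), and the other sets of Rab20 (0.15 and 0.68) and Rab2a (0.04) were above 0 and not called. Which part of a transcript each set reads was not known here, and the beta-actin 3′ minus 5′ difference given above stood apart between the pools in the same comparison. Its part in these disagreements was not tested.

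**Figure D3:**
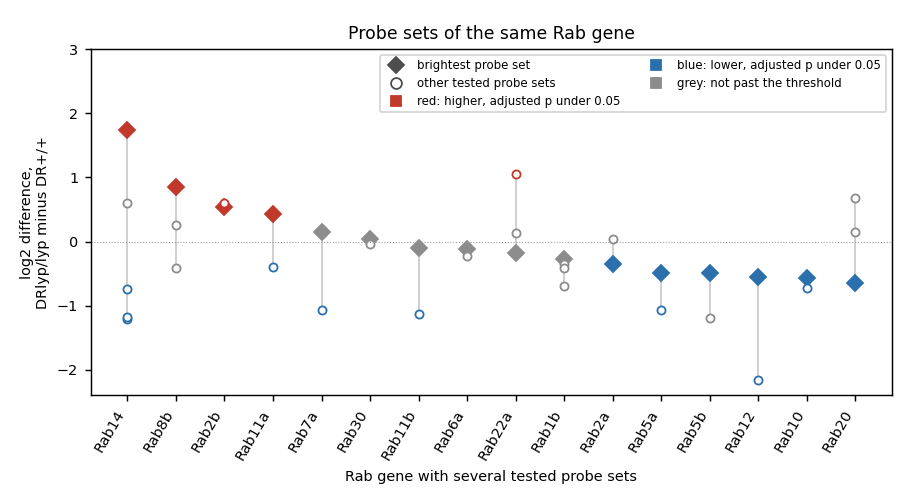
Log2 difference (DRlyp/lyp minus DR+/+) of every tested probe set for the 16 Rab genes with several; filled diamonds are the brightest set of a gene, open circles the others, and colours the limma call. The sets of Rab14 run from -1.21 to 1.74 and those of Rab12 from -2.16 to -0.55, whereas both sets of Rab10 and both of Rab2b lie close together.

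Regulators and effectors of Rabs were followed with a list of 118 genes, of which 102 were on the array and 89 tested. Of these, 24 were higher and 18 lower, 47.2% called against the background of 42%, with a median of -0.02. The count fell to 21 without DRlyp/lyp replicate 1 and to 22 without DRlyp/lyp replicate 2. Exchange factors, which load Rabs with GTP, were higher in 6 and lower in 1 of 20. Their called share lay below the background of 42%. The share called higher was above the 20.9% of all genes tested, and the share called lower was below the 21.1%. Rab3ip, also called Rabin8, the exchange factor of Rab8, read 158.6 and 176.9 against 46.3 and 36.5, the largest rise of the list (2.03 ± 0.24, limma adjusted p = 5.14e-05). Its second probe set was also higher (1.13, limma adjusted p = 0.0105). Hps1, a subunit of the exchange factor for Rab32 and Rab38, read 1085.6 and 1021.1 against 378.3 and 412.3 (1.41 ± 0.10, limma adjusted p = 1.05e-06), whereas its second set was not called (-0.18, limma adjusted p = 0.422). Of 25 genes listed as GTPase-activating proteins, a class that switches Rabs off, 9 were higher and 3 lower. The called share of these genes lay above the background of 42%. The share called higher was above 20.9%, and the share called lower was below 21.1%. Whether each gene of this group switches a Rab off was not tested. Both of the largest falls of the list were in this group, with Tbc1d14 at 235.7 and 189.8 against 369.5 and 445.7 (-0.94) and Tbc1d23 at 239.9 and 235.6 against 414.1 and 437.4 (-0.84).

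Effectors bind the GTP-bound Rab and carry out its task. Of the effector lists, 40.0% of the early endosome, 50.0% of the secretory, 57.1% of the recycling, 44.4% of the late endosome and 66.7% of the Golgi genes tested were called, on few genes each and against the background of 42%. Of 10 early endosome effectors, 0 were higher and 4 were lower, among them the tethering protein Eea1, at 88.9 and 83.2 against 137.4 and 159.5 (-0.78), and the lipid kinase Pik3c3, at 136.7 and 116.9 against 214.1 and 204.7 (-0.73). Of 8 secretory effectors, 3 were higher and 1 was lower. The synaptotagmin-like proteins Sytl2 (1.30), Sytl3 (1.23) and Sytl1 (1.20), which link granule Rabs to the plasma membrane, were the 3 higher ones. Sytl2 read 263.0 and 163.5 against 61.6 and 115.3, with a wide spread in both pools. Of 7 recycling effectors, 1 was higher and 3 were lower, including the motor Myo5a at 63.5 and 58.0 against 113.4 and 99.5 (-0.81). Among the 9 late endosome effectors 3 were higher and 1 lower, and of 6 Golgi effectors 1 was higher and 3 lower. Of 4 genes listed for the prenylation of Rabs or their cycling on and off membranes, Gdi2 was higher on its brightest set (0.22). The second set of Gdi2 fell, at 296.5 and 248.0 against 881.1 and 834.1 (-1.66, limma adjusted p = 1.23e-06). Rabac1 (-0.38) and Rabggtb (-0.29) were lower. Many of these calls were lost with 1 array left out, where the spread of a gene comes from the other pool alone. Without DRlyp/lyp replicate 1, limma gave an adjusted p of 0.0532 for Eea1, 0.0928 for Sytl1, 0.105 for Sytl2, 0.0710 for Myo5a and 0.0922 for Rabac1. Without DRlyp/lyp replicate 2 it was 0.0760 for Eea1, 0.0762 for Pik3c3, 0.0760 for Sytl3, 0.109 for Myo5a, 0.0698 for Gdi2, 0.156 for Rabac1 and 0.267 for Rabggtb. Without DR+/+ replicate 1 it was 0.0661 for Myo5a, and without DR+/+ replicate 2 it was 0.0732 for Rabac1 and 0.140 for Rabggtb. Rab3ip, Hps1, Tbc1d14 and Tbc1d23 were called with each array left out.

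**Figure D4:**
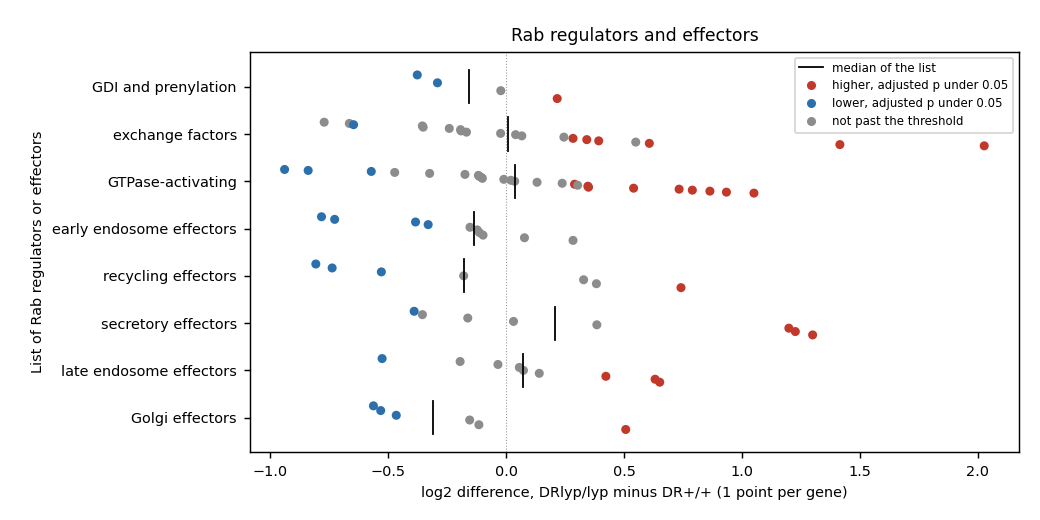
Log2 difference (DRlyp/lyp minus DR+/+) of the 89 tested Rab regulators and effectors, 1 point per gene (brightest probe set), by list; colours mark the limma call and black lines the list medians. Early endosome effectors have 4 points called lower and 0 called higher (40.0% called, against 42% over all genes tested). The widest rises are those of Rab3ip and Hps1 among the exchange factors.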

How the data were processed

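RNA of AA4+ selected cells from 2 pools was measured on 4 arrays. The authors deposited 1 intensity per probe set and array, not log transformed, and the authors' program is not given in the sources used here. Per the labels, groups and replicate numbers come from the sample titles. Values were kept as deposited, raised to 6.8 where lower (the 25th percentile over all arrays) and put on the log2 scale. Of 31099 probe sets 57 controls were left out, and 16068 above the pooled median (28.3) on at least 2 arrays entered limma 3.58.1 under R 4.3.3, in two-sided tests (intensity trend, 2 residual degrees of freedom), after a check on simulated data. Gene symbols are those of the platform's annotation: 20826 probe sets had 1 symbol, 436 several and 9780 none. All 55 Rab symbols were found unchanged in the RefSeq table of GRCr8. 1 gene of the family is not reported here.

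The named members were, per role group, up to 4 called genes each way whose arrays did not overlap, and Rab3d, Rab5a, Rab7a and Rab11a. The named regulators were the 3 largest called differences each way, and the named markers up to 2 per list with the largest difference. The other genes with values were chosen after their values were seen. Members, lists and tests were chosen with earlier results of these data known. The alternatives were quantile normalization, median centring, no filter, filtering at the 75th or flooring at the 10th percentile, adding 50 in place of the floor, a replicate block, leaving out each array, no intensity trend, and the mean or the dimmest of a gene's probe sets. Python 3.11.15 and matplotlib 3.10.9 were used. The number of arrays limits the precision.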

Additional observations from a re-analysis of the deposited data

How the results depend on the processing

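Against 20 called Rab genes (7 higher, 13 lower), the count was 6 (4 and 2) without a filter, and 11 without an intensity trend, where 5 were lower. With the mean or the dimmest of a gene's probe sets 4 were higher. Leaving out 1 array gave 11 to 18 called Rab genes, 4 to 6 higher and 7 to 12 lower. The replicate block gave 20. Same-numbered arrays did not deviate together (correlation 0.04 between the pools), so the numbers were not taken as pairs. Called regulators and effectors, 42 as reported, were 8 without a filter, 24 without an intensity trend and 21 to 39 with 1 array left out.

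The endosomal median (-0.31) read -0.33 with quantile normalization, -0.42 with median centring, -0.27 without a filter, -0.37 with the filter at the 75th percentile, -0.28 with the offset of 50 and -0.40 to -0.30 with 1 array left out. The recycling median (-0.29) read -0.40 with median centring, -0.10 with the stricter filter and -0.43 with the mean or the dimmest probe set. The secretory median (-0.11) read -0.29 with the stricter filter and -0.27 to 0.080 with 1 array left out. The median of ER, Golgi and other Rabs (-0.01) read -0.12 with median centring, 0.0066 without a filter, -0.072 with the stricter filter and -0.12 to 0.025 with 1 array left out.

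Of 277 values of named Rab genes under alternatives, 219 kept their direction and their side of the threshold, 50 lost the call and 8 changed sign. Sign changes were those of Rab3d without DRlyp/lyp replicate 1 (0.33, against -0.65 without DRlyp/lyp replicate 2), of Rab20 (0.058), Rab14 (-0.16) and Rab7a (-0.46) with the mean of the probe sets, and of Rab20 (0.68), Rab11a (-0.39), Rab2a (0.042) and Rab7a (-1.07) with the dimmest. The cause of these changes was not tested. Where a lone array was left in a pool, it was assumed to vary like the other pool.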
